A study of Rattus norvegicus with 102 samples.

Results

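The genes described here are those of the rat major histocompatibility complex (RT1) that encode class II proteins, with 2 genes tied to their function, in the hippocampus of young and aged rats. Members were taken by name, as the rows whose gene symbol equalled Cd74, RT1-Da, RT1-Db1, RT1-Ba, LOC688090 or Ciita. All 6 names were found, once each, among the 26284 genes listed in the Illumina table. The rats were male Fischer 344 animals (Fisher 344 in the labels), either young (5 to 6 months, n = 10) or aged (17 to 22 months), and the aged rats were classed by a water maze as unimpaired (n = 12) or impaired (n = 12). The regions CA1, CA3 and dentate gyrus (DG) were separated by hand over the whole length of 1 hippocampus per rat, and each gave 1 RNA sample. Poly-A RNA of each sample was read on an Illumina HiSeq and again on an Ion Proton, and a further table called WT, whose library type the labels do not give, covers the same rats. Each table thus holds 1 library for each of 34 rats and 3 regions. None of the groups carried a transgene or received a drug according to the labels, and the study compared the regions, the ages and the aged rats by maze result.

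Class II proteins are pairs of an alpha and a beta chain that display peptides from engulfed material to CD4 T cells. The invariant chain, encoded by Cd74, occupies the peptide groove while the pair travels to the endosome, where proteases such as cathepsin S remove it. Ciita is the coactivator that switches the class II genes and Cd74 on together, through factors bound to the X and Y boxes of their promoters. In healthy brain these genes are carried mainly by microglia, at low levels, and by macrophages at its borders.

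RT1-Da (ENSRNOG00000032844) encodes the alpha chain and RT1-Db1 (ENSRNOG00000033215) a beta chain of the rat counterpart of the human DR molecule. RT1-Ba (ENSRNOG00000000451) encodes the alpha chain of the DQ counterpart. LOC688090 (ENSRNOG00000032708) carries only a locus number in the tables. The tables place these 4 genes on chromosome 20, Cd74 (ENSRNOG00000018735) on chromosome 18 and Ciita (ENSRNOG00000002659) on chromosome 10, and give all 6 as protein coding. In RefSeq's GRCr8 assembly RT1-Db1 and RT1-Ba are direct neighbours, and only RT1-Db2 and a pseudogene lie between RT1-Da and RT1-Db1. Because RT1 genes resemble each other, the counting could have moved reads between near-identical copies, and the split of reads between the beta chain genes in particular is uncertain.

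The promoters of 3 of the chromosome 20 genes are shown because they carry the letters of the X and Y boxes that the class II genes have in common. They were read from RefSeq (GRCr8) and are written 5′ to 3′ on the strand of the gene, with the letters GCAAC of an X box core and CTGATTGG of a Y box, which contains the CCAAT box reversed, in capitals. RT1-Da lies on the plus strand (chr20:4515321-4515382), RT1-Db1 on the minus strand (chr20:4560226-4560286) and RT1-Ba on the plus strand (chr20:4576969-4577030).
RT1-Da: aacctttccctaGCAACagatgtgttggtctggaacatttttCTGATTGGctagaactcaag
RT1-Db1: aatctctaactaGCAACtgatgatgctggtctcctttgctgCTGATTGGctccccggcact
RT1-Ba: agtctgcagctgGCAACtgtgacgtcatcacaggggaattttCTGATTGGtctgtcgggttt

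The capitals lie 25, 24 and 25 bases apart in RT1-Da, RT1-Db1 and RT1-Ba, and the Y box letters begin 52, 83 and 46 bases before the annotated start. The motifs were chosen after these sequences had been seen, and both strands were searched in the 300 bases around the start of 33469 RefSeq genes. Among these promoters 3.5% held CTGATTGG, 35.1% held GCAAC and 37.5% held ATTGG, which also lies inside CTGATTGG. The pair on 1 strand, with GCAAC first and a gap of 15 to 40 bases, stood in 52 promoters, a share of 0.155%, and 6 of those belong to RT1 genes: the 3 above, RT1-Db2, RT1-DOa and RT1-Ha. The promoter of Cd74 held GCAAC once, ATTGG once and CTGATTGG not at all. Its ATTGG lies 189 bases before the start, on the strand opposite to that of the gene. A match of letters is a description of these windows only.

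Some libraries stood apart before any age comparison was made. By the marker genes of the regions, 10 libraries lay nearer to another region than to the one on their label, in both poly-A tables. All came from rats numbered 9000 or above, and 6 of them were labelled CA3. In the Ion Proton data, 5 libraries, 1 of them also against its label, held 0 reads for 30 to 195 of 11394 genes that were well measured in the Illumina library of the same tissue. The CA1 library of aged unimpaired rat R2232 was the most affected, with Cd74, RT1-Da, RT1-Db1, RT1-Ba and Ciita all at 0. Another set of 10 libraries, of which 2 are also among those against their label, held at least 10 times the median of their region in summed markers of leptomeninges or choroid plexus, the tissues that border the hippocampus. The age comparison is therefore also given without each of these sets of libraries. Rats were obtained for 2 sites, from different colonies, and the rat numbers fall into a series below 9000 (5 young, 13 aged) and a series from 9000 up (5 young, 11 aged). The methods of the study give the same numbers for the Florida and the Arizona site, though no label ties a rat to a site. Values within each series are given. Each Illumina library held 3.25 to 42.75 M reads (median 10.75 M), and the group medians in each region lay between 9.83 and 12.14 M reads.

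Levels below are normalised reads, that is read counts divided by the size factor of the library. They allow a gene to be compared between libraries but not with another gene, since they are not divided by gene length. In whole tissue, more cells that express a gene and more RNA per cell cannot be told apart.

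Cd74, the invariant chain, was higher in aged than in young rats in all 3 regions. In CA1 its lowest, median and highest values were 63.9, 95 and 926 normalised reads in young rats and 169, 419 and 968 in aged rats. In CA3 they were 84.7, 181 and 868 in young and 160, 658 and 8694 in aged rats. In DG they were 39.5, 90.4 and 199 in young and 95, 271 and 948 in aged rats. The aged rats lay above the young median in 24 of 24 cases in CA1, 23 of 24 in CA3 and 24 of 24 in DG. The groups overlapped, since 1, 8 and 13 aged rats exceeded the highest young rat in CA1, CA3 and DG. In CA1 the highest young value, 926, came from rat R9780, far above the next young rat, R2175, at 288. In CA3 the highest young rat was R9876 at 868, whose library also held 39.5 times the median of the leptomeninges markers and 14.1 times that of the border macrophage markers. The highest aged value, 8694 in CA3, came from impaired rat R2238, followed by unimpaired rat R2185 at 4144.

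RT1-Da, the DR-type alpha chain, had lowest, median and highest values in CA1 of 12.5, 21.9 and 210 in young rats and 32, 95.4 and 254 in aged rats. In CA3 these were 12.3, 41.9 and 268 in young rats and 37.3, 137 and 2263 in aged rats. In DG they were 4.58, 13.7 and 45 in young rats and 12.3, 58.6 and 224 in aged rats. The overlap was again large in CA1 and CA3, where 2 and 6 aged rats exceeded the highest young rat, and smaller in DG, where 14 did.

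RT1-Db1, a DR-type beta chain, ran from 7.58 through a median of 12.2 to 160 in CA1 of young rats and from 25.4 through 58 to 193 in aged rats. In CA3 it ran from 8.59 through 24.1 to 194 in young rats and from 20.9 through 121 to 1975 in aged rats. In DG it ran from 4.58 through 7.36 to 25.7 in young rats and from 12.3 through 52.1 to 204 in aged rats. The DG values overlapped least, with 17 of 24 aged rats above the highest young rat, against 3 in CA1 and 7 in CA3.

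RT1-Ba, the DQ-type alpha chain, was at 10.8, 16.9 and 195 (lowest, median, highest) in CA1 of young rats and at 30, 75.6 and 214 in aged rats. In CA3 it was at 12.3, 38.2 and 172 in young rats and at 28.9, 128 and 1912 in aged rats. In DG it was at 6.3, 12.2 and 37.4 in young rats and at 15.2, 51.3 and 204 in aged rats. Above the highest young rat lay 2 aged rats in CA1, 8 in CA3 and 15 in DG.

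LOC688090 was at 4.33, 13.3 and 154 (lowest, median, highest) in CA1 of young rats and at 21, 73.5 and 179 in aged rats. In CA3 it was at 11, 28.3 and 213 in young rats and at 22.4, 122 and 1622 in aged rats. In DG it was at 3.15, 9.92 and 22 in young rats and at 12.2, 39.5 and 166 in aged rats, of which 19 exceeded the highest young rat. In CA1 and CA3, 4 and 6 aged rats did.

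The same rats stood at the top for all of these genes. Young rat R9780 held the highest young value of Cd74, RT1-Da, RT1-Db1, RT1-Ba and LOC688090 in CA1, and its CA1 library was not among those high in border tissue markers. Among aged rats, R2238 and R2185 held the highest and second highest CA3 values of all 5 genes, and rat R9782 the highest CA1 values. The lowest aged CA3 value of all 5 genes came from rat R9781, one of the libraries nearer to DG than to CA3, while the DG library of the same rat lay nearer to CA3 and held the highest aged DG value of Cd74, RT1-Da, RT1-Ba and LOC688090.

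**Figure D1:**
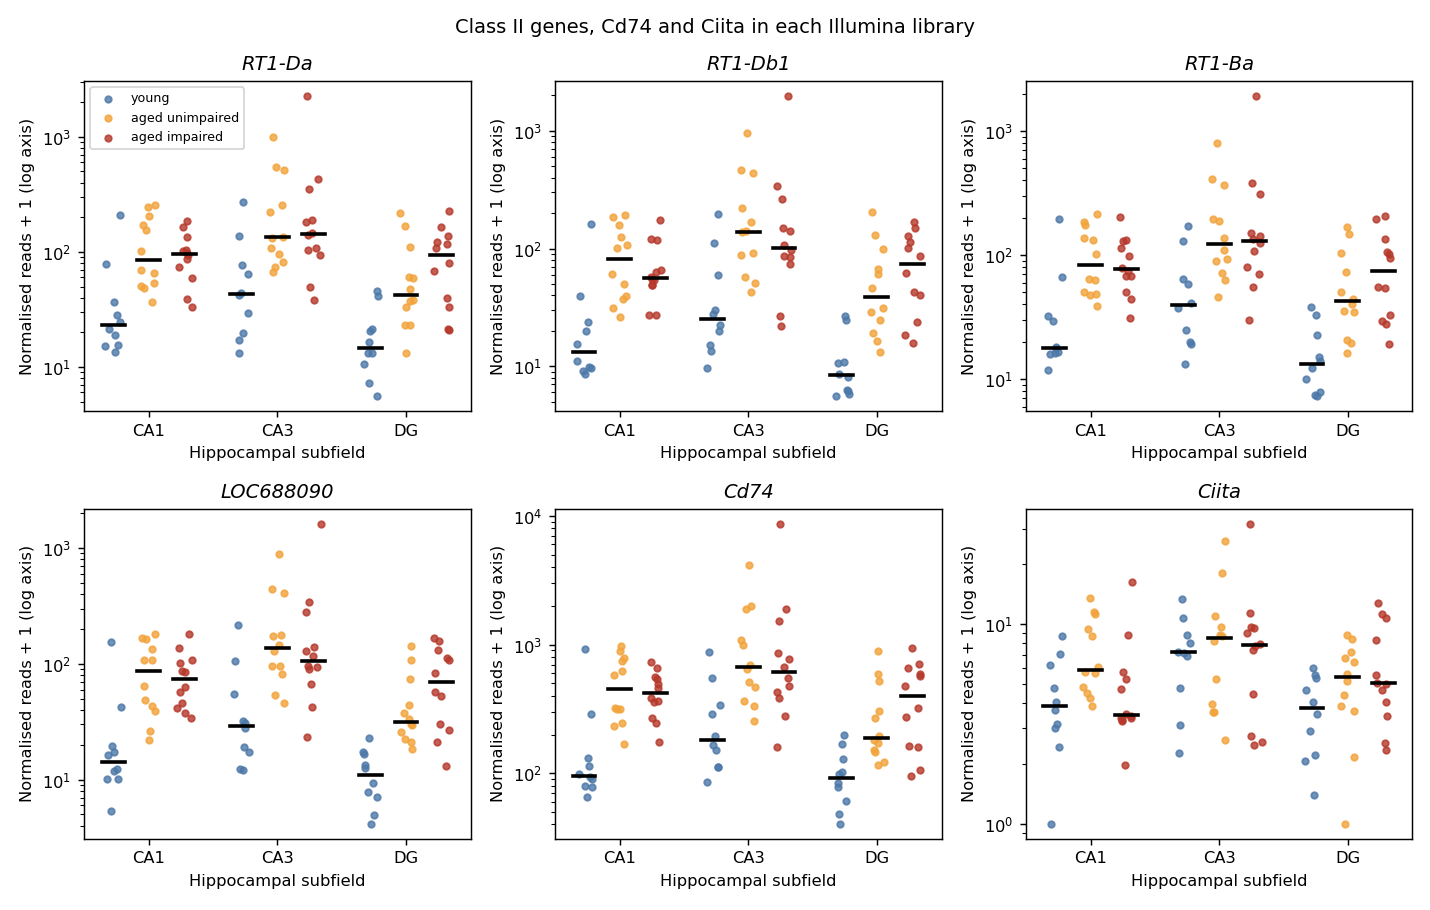
Each point is 1 Illumina library, with normalised reads + 1 on a log axis, by hippocampal subfield and group (10 young, 12 aged unimpaired and 12 aged impaired rats), and black lines are group medians. The medians of both aged groups lie above the young median for RT1-Da, RT1-Db1, RT1-Ba, LOC688090 and Cd74 in each subfield, with 1 young CA1 library and 1 impaired CA3 library far above their groups, while Ciita stays near the floor.

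Ciita, the coactivator, was close to the limit of detection. It had lowest, median and highest values of 0, 2.9 and 7.68 normalised reads in CA1 of young rats and 0.969, 4.05 and 15.1 in aged rats. In CA3 these were 1.25, 6.22 and 12.3 in young and 1.49, 7.08 and 30.7 in aged rats, and in DG 0.399, 2.8 and 5.03 in young and 0, 4.13 and 11.8 in aged rats. At most 3 reads stood behind the value in 15, 11 and 17 of the 34 libraries of CA1, CA3 and DG. Ciita did not reach the mean of 10 normalised reads set for testing, and without that filter its aged minus young difference on the log2(value + 1) scale was 0.54 ± 0.30 (SE) in CA1, 0.13 ± 0.35 in CA3 and 0.55 ± 0.30 in DG (limma, unadjusted p = 0.0782, 0.703 and 0.0737). In the Illumina table a difference was not detectable at this depth.

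The age comparison was tested across all genes with limma, and a gene was called when its unadjusted p was below 0.01 in the Illumina table and its one-sided p for the same sign below 0.05 in the Ion Proton table. The cut-offs are those of the study, which applied them to DESeq2 tests. Since both tables come from the same RNA, the Ion Proton test repeats the measurement and not the biology. In CA1, 4 of the 6 members were called higher in aged rats, where 0.676% of 14191 tested genes were called higher. RT1-Ba was the tested member not called there, with a one-sided Ion Proton p of 0.0769 (limma). In CA3, 5 of 6 were called, against 0.337% of 14246 genes, and in DG 5 of 6, against 0.92% of 14019 genes. Ciita, below the filter, is the uncalled member in each region.

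By size, the aged minus young difference of Cd74 was 1.71 ± 0.31 (SE) on the log2(value + 1) scale in CA1, a fold of 3.27, 1.79 ± 0.45 in CA3 and 1.66 ± 0.35 in DG. RT1-Da differed by 1.64 ± 0.35, 1.91 ± 0.49 and 1.93 ± 0.40 in CA1, CA3 and DG. RT1-Db1 showed the widest differences in CA3 and DG of the tested members, 2.12 ± 0.53 and 2.42 ± 0.40, the latter a fold of 5.35, and 1.91 ± 0.38 in CA1. RT1-Ba differed by 1.65 ± 0.34, 1.81 ± 0.47 and 2.00 ± 0.38, and LOC688090 by 2.04 ± 0.38, 2.07 ± 0.50 and 2.25 ± 0.37. The median over the 5 tested members was 1.71, 1.91 and 2.00 in CA1, CA3 and DG, where the median over all tested genes was between -0.01 and 0.00.

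Adjusted over all genes of the Illumina table by Benjamini and Hochberg, limma gave adjusted p values in CA1 of 0.00378 for Cd74, 0.00464 for LOC688090, 0.00851 for RT1-Db1, 0.0133 for RT1-Ba and 0.0204 for RT1-Da. In DG they were 0.00125 for RT1-Db1 and LOC688090, 0.00698 for RT1-Ba and 0.0163 for Cd74 and RT1-Da. By this stricter rule 5 members passed in CA1, among 0.338% of genes, and 5 in DG, among 0.285% of genes called higher. In CA3 none did by limma, with adjusted p values of 0.173 to 0.254 and no gene of 14246 passing, although 471 genes had an unadjusted p under 0.05 and that of Cd74 was 0.000338. The tools differed there. With edgeR on the recovered reads 9 genes passed in CA3 and the members did not (adjusted p 0.172 to 0.255), while with DESeq2 50 genes passed, 22 of them higher in aged rats (0.154% of those tested), and 5 members were among these, with adjusted p of 0.0114 for Cd74 to 0.0285 for RT1-Da.

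Over the 5 tested members the age difference was 1.08 to 1.91 in CA1, 1.77 to 2.32 in CA3 and 1.83 to 2.07 in DG in the Ion Proton table, and 1.60 to 1.93, 1.69 to 1.98 and 1.76 to 2.30 in the WT table. The lowest was RT1-Ba in CA1, at 1.08 ± 0.74 in the Ion Proton table against 1.65 ± 0.34 in the Illumina table. For Cd74 in CA1, CA3 and DG the Ion Proton differences were 1.32 ± 0.63, 1.77 ± 0.48 and 1.83 ± 0.36, and the WT differences 1.60 ± 0.30, 1.69 ± 0.51 and 1.77 ± 0.35. In the Ion Proton table Cd74 ran in CA1 from 52.6 through 93.4 to 894 in young and from 0 through 400 to 966 in aged rats, the 0 being the library of rat R2232 with missing genes. Leaving out the 5 libraries with missing genes from both tables raised the Ion Proton difference of Cd74 in CA1 to 1.77, and 5 of the members were then called in CA1, against 1.11% of genes called higher in that fit.

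Leaving out the libraries high in border tissue markers lowered the number called in CA1 to 3, against 0.376% of genes called higher in that fit. It left 5 called in CA3, against 0.472%, and 5 in DG, against 1.32%. These libraries fell unevenly, with 6 aged and 0 young rats in CA1, 1 aged and 2 young in CA3 and 1 young in DG. Without them the difference of Cd74 was 1.48 in CA1, 2.10 in CA3 and 1.78 in DG. Without the libraries that went against their subfield label it was 1.67, 1.74 and 1.76. When each rat was left out in turn, 4 or 5 members were called in CA1 and 5 in both CA3 and DG, and the fifth in CA1 was gained without rat R2230, R2232, R9780 or R9874.

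The age difference was above 0 in each number series in every region, though not every member was called, and it was uneven in CA3. In CA1 the differences of Cd74, RT1-Da, RT1-Db1, RT1-Ba and LOC688090 were 1.55 to 2.02 below 9000 and 1.73 to 2.27 from 9000 up, where 1 and 4 of them were called, against 0.511% and 0.633% of genes called higher in the same fits. In DG they were 1.56 to 2.08 and 1.88 to 2.90, with 5 called in each series, against 0.617% and 0.569% of genes. In CA3 they were 2.55 to 3.10 below 9000, where 5 members were called, against 0.156% of genes, and 0.88 to 1.12 from 9000 up, where none was called, against 0.462%. The medians of Cd74 in CA3 were 195 in 5 young and 862 in 13 aged rats below 9000, against 151 in 5 young and 384 in 11 aged rats from 9000 up. In DG they were 59.6 in young and 161 in aged rats below 9000, against 127 and 586 from 9000 up, so aged rats of the upper series were lower in CA3 and higher in DG by their medians. The difference between the series was tested for each gene. In CA3 it was -1.69 ± 0.79 for Cd74 and -2.12 ± 0.93 for RT1-Db1, with adjusted p of 0.79 and 0.762 (limma), so it was not shown across all genes. On the recovered reads it was larger, at -2.55 and -3.21 with edgeR (unadjusted p 0.00567 and 0.00397, adjusted 0.528 and 0.521) and at -2.59 and -3.38 with DESeq2 (unadjusted p 0.00208 and 0.000543, adjusted 0.284 and 0.205), and no member passed with either tool. Of the 10 libraries that went against their label, 6 are CA3 libraries of the series from 9000 up, and without those 6 the limma difference between the series in CA3 was -2.32 ± 0.88 for Cd74 and -2.99 ± 0.98 for RT1-Db1, with adjusted p of 0.318 and 0.263.

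**Figure D2:**
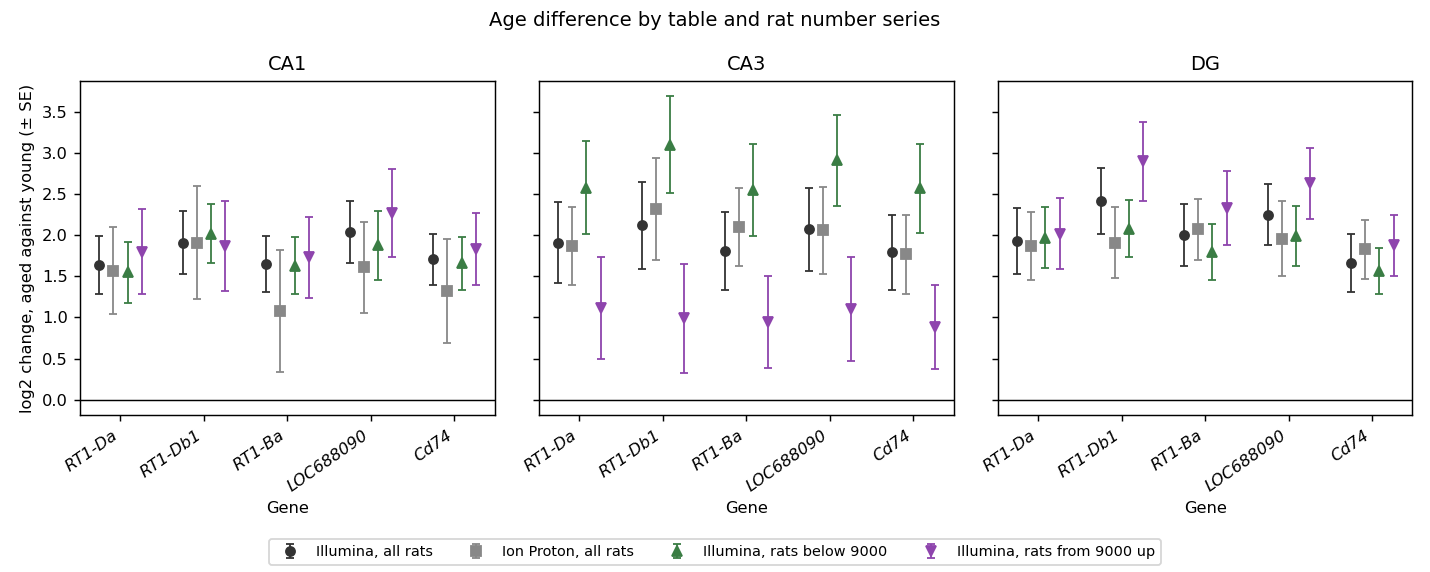
Points give the aged minus young difference on the log2(value + 1) scale and bars its standard error, for each gene and subfield, in the Illumina table with all rats, the Ion Proton table with all rats, and the Illumina table within each rat number series. In CA3 the series below 9000 lies at 2.55 to 3.10 and the series from 9000 up at 0.88 to 1.12, while in CA1 and DG the series lie closer together.

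Each aged group was also set against the same young rats, so the values that follow share their controls. In unimpaired rats 3 members were called in CA1, against 0.501% of genes called higher, 5 in CA3, against 0.337%, and 5 in DG, against 0.514%. In impaired rats 4 were called in CA1, against 0.671% of genes, 5 in CA3, against 0.224%, and 5 in DG, against 0.827%. Without the libraries high in border tissue markers 1 member was called in CA1 of unimpaired rats, against 0.212% of genes. With edgeR on the recovered reads 0 were called in CA1 of impaired rats, against 0.812%. The DG difference of Cd74 from young was 1.44 ± 0.34 in unimpaired and 1.88 ± 0.38 in impaired rats.

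Impaired and unimpaired aged rats were then compared directly, the question being whether maze performance goes with class II expression. No member was called in CA1, CA3 or DG, where 0.62%, 0.0211% and 0.121% of genes were. In CA1 the Cd74 values were 169, 450 and 968 (lowest, median, highest) in unimpaired and 174, 419 and 728 in impaired rats. In CA3 they were 252, 668 and 4144 in unimpaired and 160, 610 and 8694 in impaired rats, and in DG 115, 186 and 888 in unimpaired and 95, 399 and 948 in impaired rats. The ranges overlapped nearly whole in each region. The impaired minus unimpaired difference of Cd74 was -0.14 ± 0.28 in CA1, -0.11 ± 0.51 in CA3 and 0.44 ± 0.40 in DG (limma, adjusted p = 0.996, 1 and 0.999).

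In DG the medians of all 5 tested members were higher in impaired rats, for instance 93.1 against 41.6 for RT1-Da, 73 against 37.6 for RT1-Db1 and 69 against 30.6 for LOC688090. Their log2 differences were 0.44 to 0.63 with standard errors of 0.40 to 0.46, so a difference was not shown (limma, unadjusted p 0.139 to 0.313). No region marker was called in the same comparison, the 6 tested DG markers all being lower in impaired rats (median -0.35), the 5 CA1 markers lower (-0.40) and the 5 CA3 markers higher (0.21), and the 3 choroid plexus markers were also higher (0.33). Their part in the differences of the members was not tested. In CA1 the number series pointed in opposite directions. Below 9000 the impaired minus unimpaired differences were 0.58 to 0.91, with none called, where 0.227% of genes were. From 9000 up they were -0.84 to -1.19, and Cd74 and RT1-Db1 were called, where 0.232% of genes were called lower. The libraries high in border tissue markers fell unevenly there too, being 4 of the 6 unimpaired and 1 of the 5 impaired CA1 libraries of that series. Without them Cd74 was at -1.33 ± 0.21 and the other tested members at -1.58 to -1.99, and 4 were called, where 0.269% of genes were called lower, but only 2 unimpaired rats remained and the adjusted p was 0.512 to 0.54 (limma). The difference between the series was -1.42 ± 0.38 for Cd74, -1.75 ± 0.48 for RT1-Da, -1.84 ± 0.51 for RT1-Db1, -1.55 ± 0.46 for RT1-Ba and -1.89 ± 0.50 for LOC688090. Their unadjusted p values lay between 0.000974 and 0.00273, and the adjusted p was 0.958 for each (limma), with 0 of 14205 genes passing. In the Ion Proton table the differences between series ran from -1.08 to -4.08, with adjusted p of 0.873 to 0.877.

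Between regions, the members were highest in CA3 over all rats, but the order held only among the rats numbered below 9000. Over 34 rats Cd74 had a median of 318 in CA1, of 493 in CA3 and of 169 in DG. The order of medians was the same for RT1-Da (70.9, 107 and 37.9), RT1-Db1 (48.9, 89.4 and 26.9), RT1-Ba (64.1, 99.3 and 34.3) and LOC688090 (46, 94.7 and 27.5). CA1 and DG, neighbours in this order, were not called apart by the test below. Below 9000 the Cd74 medians of CA1, CA3 and DG were 267, 658 and 148, and from 9000 up they were 537, 373 and 413. Within a rat, Cd74 was higher in CA3 than in DG in 18 of 18 rats below 9000 and in 7 of 16 from 9000 up, or in 4 of the 8 whose CA3 and DG libraries both matched their labels.

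A gene was called between regions when its adjusted p was below 0.05 in both poly-A tables in 1 direction. CA3 exceeded DG for 5 of 6 members, against 13.9% of 14179 genes, with differences of 1.38 ± 0.31 for Cd74, 1.53 ± 0.34 for RT1-Da, 1.43 ± 0.33 for RT1-Ba and 1.58 ± 0.36 for LOC688090. RT1-Db1 was higher by a fold of 2.83. The adjusted p of Cd74 was 9e-05 (limma). Ciita, tested only without the filter, was also higher in CA3 than in DG, by 0.62 ± 0.21 (limma, adjusted p = 0.0138), with medians of 6.85 against 3.86. In the fit without the filter, 8298 of 22965 genes had an Illumina adjusted p under 0.05, so this pass is not particular to Ciita. The rule called 1971 of these genes higher in CA3. The Ion Proton difference of Ciita was 0.82 ± 0.29 (limma, adjusted p = 0.0346). Its order also held only below 9000, where Ciita was higher in CA3 in 16 of 18 rats, with medians of 7.34 and 2.56, against 8 of 16 rats and medians of 3.63 and 5.63 from 9000 up.

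CA1 was lower than CA3 for 4 of 6 members, against 6.95% of genes. Cd74 differed by -0.81 ± 0.31, RT1-Da by -0.83 ± 0.34, RT1-Db1 by -0.95 ± 0.37 and LOC688090 by -0.94 ± 0.36. RT1-Ba was not called, at -0.75 ± 0.33 with an adjusted p of 0.0694 (limma). With the rat as a replicate block, which uses that the libraries of a rat come from 1 animal, 5 were called, against 7.75% of genes, and without the 7 deeply sequenced rats none was, against 5.8%. No member was called between CA1 and DG, where 26.4% of genes were, with CA1 minus DG differences of 0.56 to 0.70 (standard errors 0.31 to 0.37) in the Illumina table and 0.01 to 0.34 in the Ion Proton table. Within a rat, CA1 held more Cd74 than DG in 26 of 34 rats, and more RT1-Da, RT1-Db1, RT1-Ba and LOC688090 in 27, 26, 28 and 25. With the rat as a block the Illumina adjusted p were 0.0166 to 0.0801 and those of Ion Proton 0.424 to 0.985 (limma), so the rule that asks for both tables still called none.

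Within the number series these region calls split. Below 9000, CA3 exceeded DG for 5 members, by a fold of 5.65 for Cd74 and 6.95 for RT1-Da, and CA1 was lower than CA3 for 5, with a log2 difference of -1.66 ± 0.39 for Cd74. In those fits 12.1% of genes were called higher in CA3 than in DG and 11.8% lower in CA1 than in CA3. From 9000 up no member was called in either comparison, against 10.4% and 1.6% of genes, with CA3 minus DG differences of 0.10 to 0.33 (standard errors 0.40 to 0.51) and CA1 minus CA3 differences of 0.07 to 0.23. None was called there without the libraries against their label either, against 10.8% and 2.52% of genes, and Cd74 stood at 0.32 ± 0.46 and -0.18 ± 0.44. CA1 exceeded DG within a rat in 16 to 18 of 18 rats below 9000 for the 5 tested members and in 9 to 10 of 16 from 9000 up, and below 9000 none was called by the rule, against 7.81% of genes. With the rat as a block none was called below 9000 either, against 9.09% of genes. The Illumina differences of 0.76 to 1.03 then had adjusted p of 0.000151 to 0.00534, and those of Ion Proton, -0.06 to 0.58, had 0.224 to 0.95 (limma). In the Illumina table the difference between the series itself passed for all 5 tested members in CA3 against DG, at -2.38 ± 0.57 for Cd74 (limma, adjusted p = 0.000324), where 48.4% of 14179 genes passed. It also passed for all 5 in CA1 against CA3, at 1.79 ± 0.57 for Cd74 (limma, adjusted p = 0.0087), where 39.7% of genes passed, and for none in CA1 against DG, where 0.839% did. With Ion Proton values all 5 passed in CA3 against DG, with adjusted p up to 0.0422, but in CA1 against CA3 only Cd74, RT1-Db1 and LOC688090 did (0.0135, 0.0142 and 0.00461), with RT1-Ba at 0.0641 and RT1-Da at 0.0928 (limma). A split shared by that many genes is not a result about the class II genes. In the Illumina table without the libraries against their label 5 members passed in CA3 against DG, with adjusted p of 0.00287 to 0.0216 (limma), and Cd74 alone in CA1 against CA3, at 0.0465, where 45.9% and 40.8% of all genes passed.

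The size of the age difference was also compared between regions. The difference between the age effects lay between -0.51 and 0.13 over the 5 tested members and the 3 pairs of regions, with standard errors of 0.55 to 0.65 and an adjusted p of 1 for each (limma), where 0% of 14179 genes were called. By this fit, which did not use that the regions come from the same rats, an age effect larger in one region was not detectable. Every estimate was smaller than its standard error. For CA1 against CA3, 16 genes passed with edgeR and 25 with DESeq2, none of them a member.

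Rats high for one member were high for the others in the same region. Across the 24 aged rats, on the log2(value + 1) scale, Pearson's r of RT1-Da with Cd74 was 0.96 in CA1, 0.99 in CA3 and 0.98 in DG (Spearman's rho 0.96, 0.96 and 0.98). For RT1-Db1, RT1-Ba and LOC688090 r lay between 0.92 and 1.00 and rho between 0.91 and 0.99. Every one of these 12 relations had a permutation p of 1e-05 for r and for rho, the smallest that 100000 resamples can give, or 2.54e-05 and 2.75e-05 when adjusted over the 33 relations computed. Without the 2 rats farthest from the median of the x axis the r of RT1-Da was 0.95, 0.98 and 0.97, and within the number series it was 0.94 to 0.99. Other members went lower below 9000, with 0.81 for RT1-Db1 in CA1, 0.82 for RT1-Ba in DG and 0.88 for LOC688090 in CA1. In the Ion Proton table r lay between 0.55 and 0.95 over the 12 relations, the lowest being LOC688090 in CA1 (permutation p = 0.04, adjusted 0.0695), whose rho was 0.95. The r of 0.55 includes the CA1 library of rat R2232, where Cd74 is among the missing genes. Without the 2 rats farthest from the median r was 0.93.

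Ciita followed Cd74 less closely, with r of 0.66 in CA1, 0.81 in CA3 and 0.65 in DG (rho 0.58, 0.74 and 0.64). The permutation p values for r were 0.00072, 1e-05 and 0.00037, or 0.00158, 2.54e-05 and 0.000872 when adjusted, and those for rho were 0.00386, 6e-05 and 0.00094. Without the 2 farthest rats r was 0.60, 0.68 and 0.62. Within the series below 9000 r was 0.04, 0.87 and 0.12, and from 9000 up it was 0.75, 0.45 and 0.59. The adjusted permutation p were 0.935, 0.000165 and 0.728 below 9000 and 0.022, 0.216 and 0.125 from 9000 up. In the Illumina table the relation of Ciita thus passed only in CA3 below 9000 and only in CA1 from 9000 up. In the Ion Proton table r was 0.62, 0.75 and 0.46 over all aged rats and 0.56, 0.81 and 0.08 below 9000, with permutation p of 0.0514, 0.0009 and 0.804 for the latter. With as few reads as Ciita has, these values carry a large counting error.

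Whether a rat high in one region was also high in another was examined with the same rats. For Cd74, r was -0.00 between CA1 and CA3, 0.43 between CA1 and DG and -0.30 between CA3 and DG (rho -0.05, 0.39 and -0.41), with permutation p of 1, 0.0355 and 0.157 for r and 0.809, 0.0604 and 0.0479 for rho, and adjusted p for r of 1, 0.0652 and 0.199. The values within the number series differed from the pooled ones. Below 9000 r was 0.52, 0.56 and 0.73 over 13 rats, with permutation p of 0.0698, 0.0428 and 0.00503 (adjusted 0.0886, 0.0634 and 0.0119). From 9000 up it was 0.49, -0.47 and -0.52 over 11 rats, with permutation p of 0.125, 0.146 and 0.0976 (adjusted 0.198, 0.209 and 0.19), so after adjustment only CA3 with DG below 9000 passed. The pooled r of the Ion Proton table was 0.09, 0.43 and -0.14, and that of CA1 with DG had a permutation p of 0.00809 (adjusted 0.0178). In the Illumina table the pooled r without the 2 farthest rats was -0.07, 0.32 and -0.49. With only the libraries that matched their labels it was -0.03 (19 rats), 0.64 (22 rats) and -0.13 (19 rats). The same values of the Ion Proton table were 0.07, 0.42 and -0.27, and 0.13, 0.52 and 0.05.

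**Figure D3:**
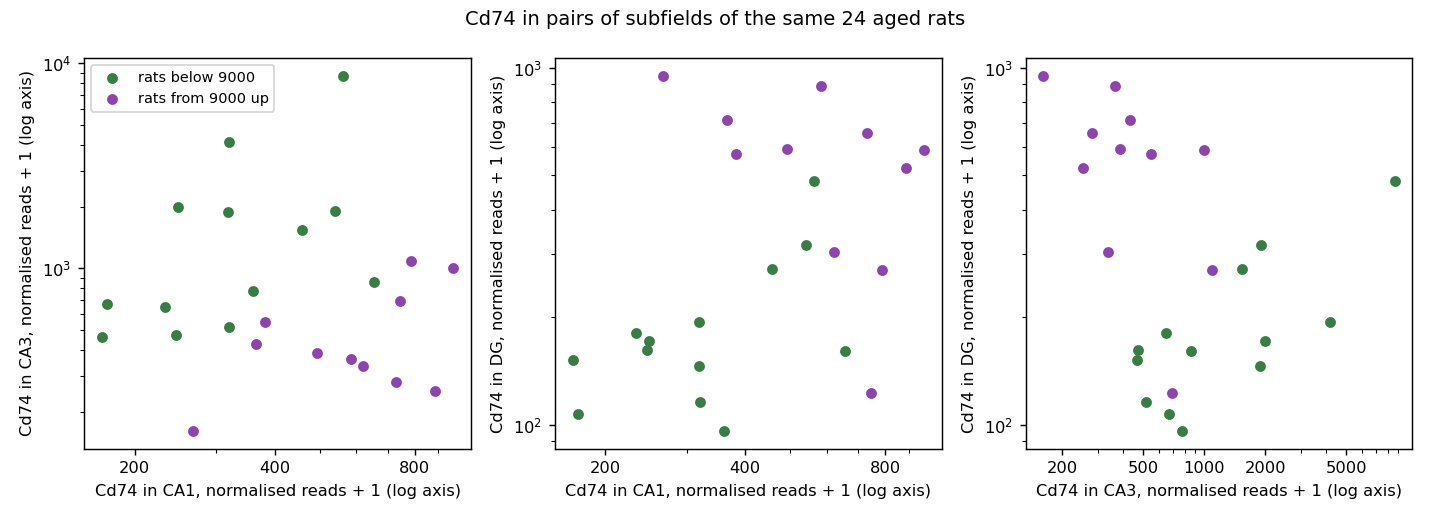
Each point is 1 of the 24 aged rats, with its Cd74 level in one subfield against another, as normalised reads + 1 on log axes, coloured by rat number series. Below 9000 r was 0.52, 0.56 and 0.73, and only CA3 with DG passed after adjustment. From 9000 up r was 0.49 for CA1 with CA3 and -0.47 and -0.52 in the panels with DG, and none passed.

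The other class II genes were the genes most like Cd74 in pattern. Likeness was taken as the lowest of the 3 regional Spearman correlations with Cd74 over 34 rats, among 14179 genes. RT1-Da (0.98), RT1-Db1 (0.96), RT1-Ba and LOC688090 (0.95 and 0.92) held ranks 1 to 4. The next genes were Cd4 at 0.77 (0.70 in the Ion Proton table), the surface protein that on T cells reads class II and that rat macrophages also carry, the lectin-like scavenger receptor Olr1 at 0.75 (0.33) and complement C3 at 0.75 (0.81). The Fc receptor Fcgr2b followed at 0.73 (0.47), then the lysosomal glycoprotein gene Gpnmb at 0.72 (0.73), RGD1305645 at 0.71 (0.67) and Bpifb4 at 0.71 (0.55). The complement inhibitor Serping1 was at 0.70 (0.60), ceruloplasmin, Cp, at 0.70 (0.40) and Rnaset2 at 0.69 (0.41). These are descriptions over rats that share age groups and depth.

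The genes that work upstream and downstream of class II were counted from lists, to be read against the 0.676%, 0.337% and 0.92% of all tested genes called higher with age in CA1, CA3 and DG. Of the 7 X and Y box factors, which are the RFX and NF-Y subunits and Creb1, none was called in CA1, CA3 or DG, with list medians of -0.03, -0.06 and 0.01. Rfx5, a subunit of the X box complex, was at -0.04 ± 0.03, -0.07 ± 0.07 and -0.04 ± 0.04. Of the 8 tested genes of the interferon gamma pathway, the main inducer of Ciita, 1 was called higher in CA1, none in CA3 and 2 in DG. Irf8, a myeloid transcription factor, rose by 0.43 ± 0.11 in CA1 and 0.37 ± 0.10 in DG, and Irf1, an interferon response factor, rose by 0.16 ± 0.05 in DG. Ifng itself lay below the filter.

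Of the 8 tested genes of class II peptide processing, 1, 1 and 5 were called higher in CA1, CA3 and DG, where 0.676%, 0.337% and 0.92% of all genes were. Ctss, cathepsin S, which cleaves the invariant chain, was at 0.36 ± 0.09 in CA1 without passing the Ion Proton test, and rose by 0.31 ± 0.09 in CA3 and 0.32 ± 0.08 in DG. Ctsz, the lysosomal protease cathepsin Z, rose by 0.52 ± 0.07 in CA1 and 0.51 ± 0.10 in DG. Lgmn, asparagine endopeptidase, and Ctsd, cathepsin D, rose in DG by 0.19 ± 0.05 and 0.17 ± 0.05. None of the 4 tested genes for Cd74 ligands and co-receptors was called, with Mif, a ligand of surface Cd74, at -0.01 ± 0.05, -0.06 ± 0.07 and -0.00 ± 0.06. None of the co-stimulation genes was called either, with Cd86, the partner of Cd28 on T cells, at 0.32 ± 0.16, 0.42 ± 0.18 and 0.34 ± 0.19. No gene of these lists was called lower in aged rats.

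Of the 7 other class II genes on the list, such as RT1-DMa, RT1-DMb, RT1-DOa and RT1-DOb, which load peptides or restrain loading, 6 are listed in the Illumina table and none reached the filter. Their summed level was 1.81 to 13 in young and 2.55 to 18 in aged rats in CA1, 3.88 to 17.6 and 4.48 to 38.4 in CA3, and 1.21 to 4.58 and 1.04 to 15.2 in DG. RT1-Ha was at 0 in every library.

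Markers of the cell types that could carry class II moved as follows. All 10 microglia markers had a difference above 0 in each region, with medians of 0.20, 0.19 and 0.20 in CA1, CA3 and DG, and 3, 1 and 3 of 10 were called higher. Cx3cr1, the fractalkine receptor, rose by 0.26 ± 0.08, 0.31 ± 0.08 and 0.31 ± 0.06. P2ry12, an ADP receptor of microglia, rose by 0.31 ± 0.08 in CA1 and 0.25 ± 0.08 in DG. The summed microglia markers were 4912 to 6655 in young and 5021 to 8578 in aged rats in CA1, 5244 to 6397 and 5289 to 9077 in CA3, and 3936 to 5913 and 4126 to 6560 in DG, so the groups overlapped.

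Set against the mean log2 level of these 10 markers in the same library, a measure added after the data had been seen, Cd74 was at -1.61 ± 1.07 (SD) in young and -0.11 ± 0.65 in aged rats in CA1, at -0.87 ± 1.05 and 0.75 ± 1.26 in CA3 and at -1.86 ± 0.61 and -0.39 ± 0.94 in DG. Over the 5 tested members the aged minus young difference of this ratio was 1.43 to 1.83 in CA1, 1.61 to 1.94 in CA3 and 1.47 to 2.23 in DG, while the markers themselves differed by 0.21, 0.18 and 0.19. In the Ion Proton table it was 0.93 to 1.76, 1.62 to 2.16 and 1.65 to 1.89. There 2 of the 15 differences had a permutation p above 0.05, those of RT1-Ba in CA1 (0.93, p = 0.222, adjusted 0.222) and Cd74 in CA1 (1.17, p = 0.0626, adjusted 0.067). By this ratio of Cd74 24, 23 and 24 of 24 aged rats lay above the young median in CA1, CA3 and DG in the Illumina table, and 22, 21 and 24 in the Ion Proton table.

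Of the markers of border macrophages 7 of 7 are listed and 5 were tested, and none was called. Their summed level in CA1 was 138 to 490 in young and 139 to 963 in aged rats, in CA3 101 to 2150 and 92.1 to 374, and in DG 87.4 to 238 and 77.6 to 300. Of the 8 leptomeninges markers 7 were tested and none was called, with a median of -0.61 in CA3, where their summed level was 415 to 27127 in young and 362 to 2477 in aged rats. The choroid plexus markers were uneven across libraries, up to a summed 152816 in CA1 of rat R9870. All 6 tested had a difference above 0 in CA1, with a median of 0.81, and below 0 in CA3, with a median of -0.61, and none was called. Of 9 listed T cell markers 2, 1 and 2 were tested in CA1, CA3 and DG and none was called, at a summed 33.9 to 174 in young and 40.4 to 246 in aged rats in CA1. None of the 3 tested dendritic cell markers was called. All 6 tested blood markers had a difference above 0 in each region, with medians of 0.45, 0.20 and 0.39 in CA1, CA3 and DG, and none was called. Hba2, an alpha chain of haemoglobin, was at 0.50 ± 0.32, 0.33 ± 0.33 and 0.42 ± 0.26 in the Illumina table and at 1.23, 0.32 and 0.75 in the Ion Proton table. The 5 B cell markers all lay below the filter, at a summed 0 to 11.5 over all libraries, with Cd79a at 0 throughout. The part of these cell types in the age difference of the class II genes was not tested.

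**Figure D4:**
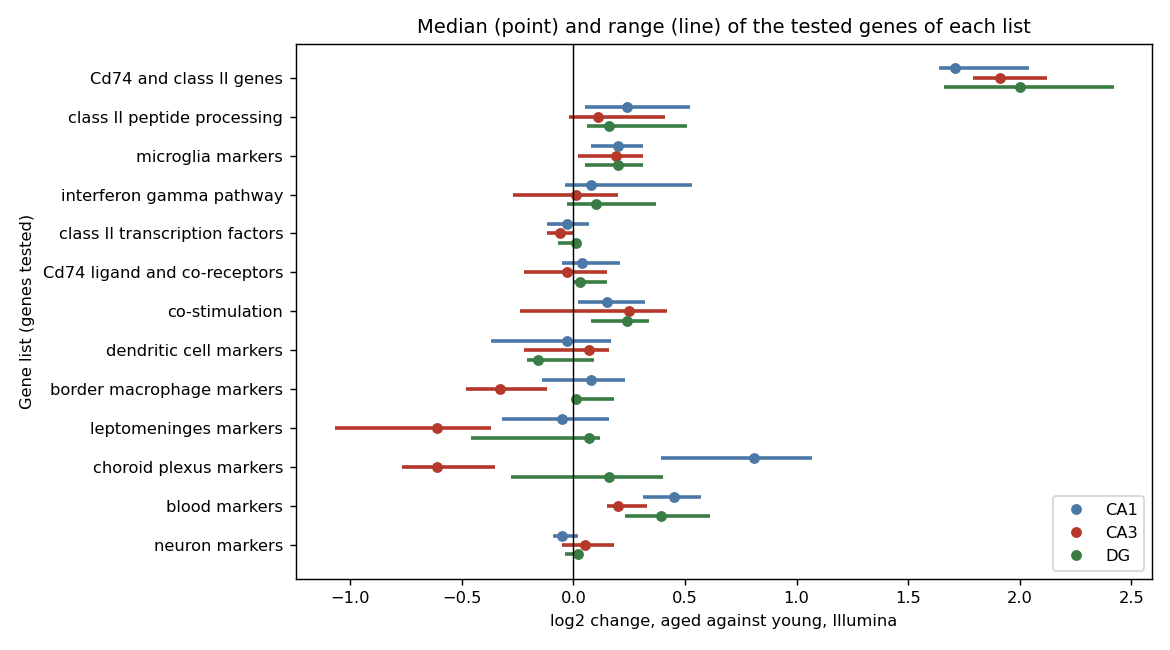
For each gene list and subfield the point is the median and the line the range, over its tested genes, of the aged minus young difference on the log2(value + 1) scale in the Illumina table. Cd74 and the class II genes have medians of 1.71, 1.91 and 2.00 in CA1, CA3 and DG, while the microglia markers have medians of 0.20, 0.19 and 0.20.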

How the data were processed

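Hippocampal RNA of 34 rats was measured in 3 subfields, with 1 library per rat and subfield in each of 3 tables. The deposited values are a signal, read counts per gene that the authors divided by the size factor of each library, and 100.0% of the values came out as whole reads within a tolerance of 0.01. For the Illumina table the submitters' processing notes and the methods name bcl2fastq 2.17, cutadapt 1.8.3, STAR 2.5, featureCounts 1.4.4 and the rn5 build, and the notes name DESeq2 1.16.1. Ion Proton reads were aligned to rn5 with TopHat2 and Bowtie2. How the WT table was made is not given in the sources used here.

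Groups came from the labels. The main test was limma 3.58.1 (R 4.3.3, trend) on log2(value + 1), 1 fit per table over all genes whose average over those libraries reached 10, so that fold changes of low genes are understated. Age and maze groups were compared within a subfield, without covariates. Alternatives were edgeR 4.0.16 and DESeq2 1.42.0 on the recovered reads, a pseudocount of 0.1, no filter, quantile normalisation, the WT table, the number series, a block on the rat, and leaving out deeply sequenced rats (7, with all libraries above 25 M reads), single rats or the libraries that stood apart. The last 2 of these, for missing genes and for border tissue, the number series within region comparisons, alone or with the block, the test between series without libraries against their label, and the series from 9000 up without border tissue libraries were chosen after seeing the data. Rat numbers pair the libraries of subfields because they mark 1 animal. No pair of libraries of a group correlated above 0.9952, and none was counted as a duplicate. Fits and correlations were tested on simulated data. No columns were left without a sample.

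The members and gene lists were chosen with earlier results of these data known. All 6 members were named in every comparison, up to 4 genes of a list by the smallest p for age in DG, and the 10 genes most like Cd74. Of the members 5 matched a RefSeq symbol and 4 a promoter in GRCr8.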

Additional observations from a re-analysis of the deposited data

Results flagged for a closer look

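In CA1 of the 10 young rats, RT1-Db1 was at 160 normalised reads in rat R9780 while the other 9 lay between 7.58 and 38.7. On the log2(value + 1) scale the gap to the next rat took a share of 0.478 of the range of the group, which set it apart from the others. It was the only 1 of 18 young groups tested (6 genes in 3 subfields) to do so, and about 1 such group in 20 stands apart by chance. The same library also held the highest young CA1 values of Cd74 (926), RT1-Da (210), RT1-Ba (195) and LOC688090 (154), it was not among the libraries high in border tissue markers, and its subfield markers matched its label. Without this rat 5 members were called for age in CA1 in place of 4.

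The difference between CA3 and DG was not the same in the rats numbered below 9000 and in those from 9000 up, by a test of that difference in limma across all genes of the Illumina table. On the log2(value + 1) scale the CA3 minus DG difference of the upper series, less that of the lower, was -2.38 for Cd74, -2.69 for RT1-Da, -2.56 for RT1-Db1, -2.43 for RT1-Ba and -2.36 for LOC688090. For CA1 minus CA3 it was 1.79 for Cd74, 1.99 for RT1-Da, 2.14 for RT1-Db1, 1.84 for RT1-Ba and 1.91 for LOC688090. The adjusted p lay between 0.000223 and 0.0195 (limma). For CA1 minus CA3 RT1-Ba and RT1-Da did not pass in the Ion Proton table (adjusted p of 0.0641 and 0.0928), while the other tested members did. All 10 libraries whose region markers went against their label belong to the upper series, and 48.4% and 39.7% of all tested genes passed the same tests.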

How the results depend on the processing

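The counts of called members stayed within 1.5 times of the reported count in 320 of 349 recomputations, and of the single values 529 stayed on their side of the threshold and kept their direction, 18 passed it, 40 no longer did and 48 changed sign. The cause of these changes was not tested. The recomputed counts include every fit that left out a single rat and comparisons with a reported count of 0. Their share therefore says little about any one comparison. For aged against young in CA1 the count of 4 was 1 below 9000, and in CA3 the count of 5 was 0 from 9000 up. For unimpaired against young in CA1 the count of 3 was 5 with the WT table, quantile normalisation, DESeq2, the series from 9000 up or without the libraries with missing genes, and 1 with a pseudocount of 0.1, below 9000 or without the libraries high in border tissue markers. In CA3 it was 3 without the libraries against their label and 0 from 9000 up. For impaired against young in CA1 the count of 4 was 0 with edgeR, 2 with DESeq2 and 0 from 9000 up, and in CA3 it was 0 from 9000 up. For impaired against unimpaired in CA1 it was 2 from 9000 up in place of 0, and 4 there without the libraries high in border tissue markers. For CA1 against CA3 the count of 4 was 1 with the WT table, 2 with a pseudocount of 0.1, 1 with no filter, 0 without deeply sequenced rats and 2 without the libraries with missing genes, 5 with the rat as a replicate block, and 0 from 9000 up, with the block or without it and with or without the libraries against their label. For CA3 against DG the count of 5 was likewise 0 from 9000 up in all these fits. The block changed no other count of subfield calls by more than 1.5 times. Leaving out single rats gave 4 to 5 called in CA1, 5 to 5 in CA3 and 5 to 5 in DG. For CA1 against CA3 the sign turned from 9000 up, with the same values under the block, for Cd74 (0.13), RT1-Da (0.22), RT1-Db1 (0.19), RT1-Ba (0.23) and LOC688090 (0.07). The other changes of sign among these counted values were in impaired against unimpaired rats, where no member was called. In the test of the age effect between the series, which no member passed, the sign turned in CA1 with edgeR and DESeq2 for Cd74 (-0.51, -0.36), RT1-Da (-0.42, -0.20), RT1-Ba (-0.61, -0.40) and LOC688090 (-0.63, -0.37), and in DG for RT1-Da (-0.04 with both). For impaired against unimpaired rats in CA1 the sign turned below 9000 (Cd74 0.58, RT1-Da 0.72, RT1-Db1 0.66, RT1-Ba 0.63, LOC688090 0.91). There it also turned without deep rats (RT1-Da 0.04, RT1-Ba 0.02, LOC688090 0.19), without border tissue libraries (Cd74 0.02, LOC688090 0.18), and for LOC688090 with the series as covariate (0.04) or without libraries against their label (0.04). For impaired against unimpaired rats in CA3 it turned with edgeR, DESeq2, without deep rats and without libraries against their label for Cd74 (0.33, 0.32, 0.27, 0.37), RT1-Da (0.37, 0.35, 0.30, 0.45), RT1-Db1 (0.26, 0.24, 0.15, 0.30), RT1-Ba (0.47, 0.45, 0.36, 0.42) and LOC688090 (0.18, 0.15, 0.15, 0.24). It also turned without the libraries with missing genes for Cd74 (0.10), RT1-Da (0.09) and RT1-Ba (0.18), and below 9000 for Cd74 (0.14), RT1-Da (0.17) and RT1-Ba (0.21). Of 33 relations 15 passed an adjusted p of 0.05, 16 in the Ion Proton table, 20 below 9000 and 13 from 9000 up. Ciita, below the filter, was recomputed only with no filter. Depth limits Ciita most, with at most 3 reads in 11 to 17 of 34 libraries per subfield.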
